A study of Homo sapiens with 6 samples.

Results

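The transforming growth factor β (TGF-β) receptors and SMAD regulators examined here were 10 genes of the count table, chosen by their symbols: TGFB1, TGFBR1, TGFBR2, TGFBR3, SMAD2, SMAD3, SMAD4, SMAD7, SKI and SKIL. They were chosen with earlier results of these data known. All 10 were found among the 36601 genes of the table, and all 10 passed the filter of more than 1 CPM (counts per 1000000 counts of the library) in at least 2 libraries, which 12263 genes passed. The libraries came from NK92, a human natural killer (NK) cell line grown from a lymphoma and kept in IL-2. The cells stably carried a control short hairpin RNA (shCtrl, 3 libraries) or a hairpin against the lncRNA miR155HG (shmiR155HG, 3 libraries), and poly(A) RNA was sequenced. Both groups had received IL-2 at 1000 U/mL and IL-12 at 10 ng/mL for 12 h, so that every value below describes cytokine-treated cells of a single line. Neither the number of separately derived lines per hairpin nor whether the replicates were separate cultures is given in the sources used here, so the p-values measure only the spread between these libraries.

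TGF-β is made as a latent dimer and, once released, binds the type II receptor TGFBR2, which recruits and phosphorylates the type I receptor TGFBR1, while TGFBR3 (betaglycan) presents the ligand. TGFBR1 phosphorylates SMAD2 and SMAD3, which join SMAD4 and enter the nucleus to act on target genes. SMAD7, itself a target gene of the pathway, blocks and helps to degrade the receptor, and the co-repressors SKI and SKIL (SnoN) bind the SMAD complex and hold its target genes down. In NK cells TGF-β is known as a brake on cytotoxicity, interferon γ and proliferation.

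Total counts were 33454786 to 39157264 per library, and TMM scaling factors were 0.997 to 1.003. The knockdown itself was visible in the hairpin's target: MIR155HG (ENSG00000234883, chr21:25561810-25575168, hg38, plus strand) had 73, 67 and 62 counts in shCtrl and 28, 19 and 10 in shmiR155HG. On the log2 scale it was lower by a fold change of -1.78 with an SE of 0.43 (adjusted p = 0.00450), which left 29.2% of the control level. MIR155HG was near the filter, at 1.88, 1.84 and 1.59 CPM in shCtrl and 0.730, 0.499 and 0.299 CPM in shmiR155HG. It passed the filter only through the shCtrl libraries. Of 11 NK markers, 10 were above 1 CPM in every library, whereas CD7 lay at 0 to 0.877 CPM. The summed NK marker level was 3723 to 3810 CPM in shCtrl and 3106 to 3241 CPM in shmiR155HG, with GZMB at 1165 to 1244 and 511 to 571 CPM, and its part in the members' values was not tested. PRF1 and NCR3 were also lower in every shmiR155HG library, EOMES and TBX21 were higher, and NCAM1 lay at 276 to 311 CPM over all 6. TRAC, at 68.1 to 78.0 CPM, was the 1 of 5 T cell markers above 1 CPM, and markers of B cells, fibroblasts and epithelial cells stayed at or below 1.13 CPM when summed over each list. Of 3 myeloid markers, CSF1R lay at 2.61 to 5.59 CPM, and the summed myeloid level was 3.55 to 5.59 CPM in shCtrl and 2.95 to 5.18 CPM in shmiR155HG.

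Among the members, the ligand and the inhibitors were higher in shmiR155HG cells, and 4 genes of the receptor and SMAD chain were lower. TGFB1, SMAD7, SKI and SKIL rose by 26.1% to 45.1%. TGFBR1, TGFBR3, SMAD3 and SMAD4 fell by 13.8% to 28.5%. TGFBR2 and SMAD2 did not pass the test. Thus 8 of the 10 members were called at an adjusted p under 0.05 by the quasi-likelihood test of edgeR, where 15.3% of all genes tested were called. Of the 10 members, 4 were called higher, against 7.26% of genes tested, and 4 were called lower, against 8.02%. The same 8 members had no overlap between the groups, which 30.8% of genes tested showed. The members were well covered, with 335 to 6183 counts per library, and where the filter was a mean CPM of 5 or more, 19.1% of genes were called. The median absolute log2 fold change was 0.352 over the members and 0.118 over all genes tested, while the signed medians were -0.051 and 0.00097. Because earlier results of these data were known when the members were chosen, these comparisons with all genes are descriptive. They are no test of the members as a set. In these bulk libraries a change in the share of cells that express a gene and a change in RNA per cell cannot be told apart.

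**Figure D1:**
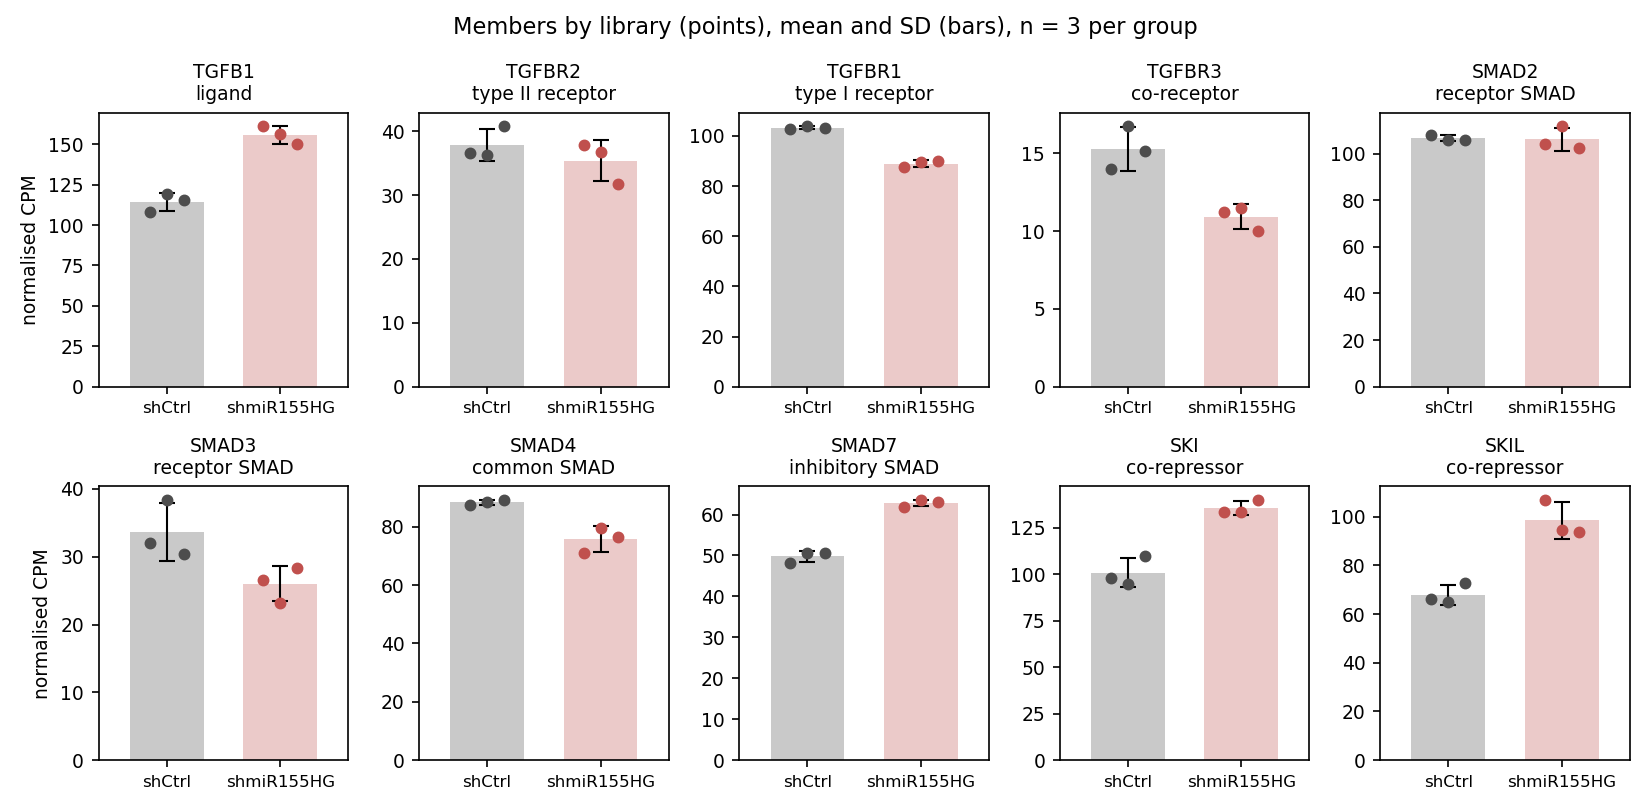
Normalised CPM of each member (vertical axis, each panel on its own scale from 0) in the shCtrl and shmiR155HG libraries, with points for the 3 libraries of a group in replicate order, bars for the mean and whiskers for the SD. The groups do not overlap for TGFB1, TGFBR1, TGFBR3, SMAD3, SMAD4, SMAD7, SKI and SKIL, and they overlap for TGFBR2 and SMAD2.

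TGFB1 (ENSG00000105329) encodes the main TGF-β ligand of immune cells and lies on the minus strand at chr19:41301587-41353922 (hg38), with 7 exons in its canonical transcript. It measured 108, 119 and 115 CPM in shCtrl replicates 1, 2 and 3 and 161, 156 and 150 CPM in shmiR155HG replicates 1, 2 and 3. Every shmiR155HG library stood above every shCtrl library, and the gap between the groups was wider than the spread within either. Mean expression was 114 ± 5.73 CPM in shCtrl and 156 ± 5.46 CPM in shmiR155HG (SD, n = 3). The rise was 36.4% (95% interval 27.5% to 45.8%), 0.45 on the log2 scale (SE 0.047, adjusted p = 7.55e-08). TGFB1 shares 215 nt of exon with HNRNPUL1 on the opposite strand, and whether reads were counted by strand is not given in the sources used here. HNRNPUL1 itself measured 421 ± 11.3 and 417 ± 5.49 CPM (SD, n = 3), a log2 fold change of -0.01 (adjusted p = 0.843).

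Of the 3 receptors, TGFBR1 and TGFBR3 fell and TGFBR2 did not pass the test. TGFBR2 (ENSG00000163513, chr3:30606601-30694142, plus strand, 7 exons), the type II receptor that binds the ligand first, measured 36.5, 36.2 and 40.8 CPM in shCtrl and 37.8, 36.8 and 31.7 CPM in shmiR155HG. Replicates 1 and 2 of both groups were almost level, and the third shCtrl library was the highest and the third shmiR155HG library the lowest of the 6. The means were 37.8 ± 2.57 and 35.4 ± 3.28 CPM (SD, n = 3), and the difference of -6.38% had a 95% interval from -16.8% to 5.28% (adjusted p = 0.506).

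TGFBR1 (ENSG00000106799, chr9:99104038-99154192, plus strand, 9 exons), the kinase that phosphorylates SMAD2 and SMAD3, measured 103, 104 and 103 CPM in shCtrl. In shmiR155HG it measured 87.5, 89.5 and 89.9 CPM. The libraries of each group lay within a few CPM of each other, and the groups were apart. Its means were 103 ± 0.636 and 89.0 ± 1.33 CPM (SD, n = 3), a change of -13.8% (95% interval -19.8% to -7.45%, adjusted p = 0.00347). TGFBR1 kept its call in each of the 16 alternatives to the test, scaling, filter, GC content and libraries that used an adjusted p, with an adjusted p of 0.0269 after correction for GC content as the highest. The fall was under the fold of 1.2 that the study's own rule requires.

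TGFBR3 (ENSG00000069702, chr1:91680343-91906335, minus strand, 17 exons), the co-receptor, had the lowest CPM of the members. It measured 14.0, 16.8 and 15.1 CPM in shCtrl and 11.2, 11.5 and 10.0 CPM in shmiR155HG, without overlap. Its means were 15.3 ± 1.40 and 10.9 ± 0.793 CPM (SD, n = 3). The change of -0.48 on the log2 scale (SE 0.13, adjusted p = 0.0104), or -28.5%, was the largest fall among the members, and its interval of -40.5% to -14.0% was also the widest of the 4 that fell. The call was lost without shCtrl replicate 2 (log2 fold change -0.41, adjusted p = 0.0721) and without shmiR155HG replicate 3 (-0.42, adjusted p = 0.0585).

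Among the SMADs that carry the signal, SMAD3 and SMAD4 fell and SMAD2 did not pass the test. SMAD2 (ENSG00000175387, chr18:47808957-47931146, minus strand, 11 exons), which lacks direct DNA binding in its main isoform, measured 108, 106 and 106 CPM in shCtrl and 104, 112 and 103 CPM in shmiR155HG. The shCtrl libraries lay within the range of the shmiR155HG libraries. The means were 107 ± 1.30 and 106 ± 4.96 CPM (SD, n = 3), and the 95% interval of the difference was -7.23% to 6.92% (adjusted p = 0.962).

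SMAD3 (ENSG00000166949, chr15:67063763-67195173, plus strand, 9 exons), which binds DNA directly, measured 32.0, 38.4 and 30.4 CPM in shCtrl. In shmiR155HG it measured 26.5, 23.2 and 28.3 CPM. The highest shmiR155HG library was close below the lowest shCtrl library, and shCtrl replicate 2 stood above the other 5. The means were 33.6 ± 4.25 and 26.0 ± 2.60 CPM (SD, n = 3), -0.37 on the log2 scale (SE 0.097, adjusted p = 0.00867) or -22.6%. The call was lost without shCtrl replicate 2 (-0.26, adjusted p = 0.116) and without shmiR155HG replicate 2 (-0.29, adjusted p = 0.0871), the libraries at either end of its range. SMAD3 shares 182 nt of exon with the antisense lncRNA AC087482.1, which did not pass the filter.

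SMAD4 (ENSG00000141646, chr18:51028528-51085045, plus strand, 12 exons), the partner common to all receptor-activated SMADs, measured 87.4, 88.4 and 89.3 CPM in shCtrl and 70.9, 79.7 and 76.5 CPM in shmiR155HG. All 3 shCtrl libraries were above the shmiR155HG libraries, whose replicate 1 was the lowest. The means were 88.3 ± 0.939 and 75.7 ± 4.47 CPM (SD, n = 3), a change of -14.4% (95% interval -21.1% to -7.09%, adjusted p = 0.00723). Without shmiR155HG replicate 1 the log2 fold change went from -0.22 to -0.18 and the adjusted p was 0.0604. As for TGFBR1, the fall was under the fold of 1.2.

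The inhibitory members all rose. SMAD7 (ENSG00000101665, chr18:48919853-48950965, minus strand, 4 exons) measured 48.3, 50.6 and 50.7 CPM in shCtrl and 61.9, 63.5 and 63.1 CPM in shmiR155HG. The libraries of each group were tightly grouped and the groups were far apart. The means were 49.8 ± 1.35 and 62.8 ± 0.830 CPM (SD, n = 3), a rise of 26.1% (95% interval 15.3% to 37.9%, log2 fold change 0.33, SE 0.063, adjusted p = 0.000392).

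SKI (ENSG00000157933, chr1:2227388-2310213, plus strand, 7 exons), the founding member of its co-repressor family, measured 98.1, 94.7 and 110 CPM in shCtrl. In shmiR155HG it measured 134, 133 and 140 CPM. The lowest shmiR155HG library was above the highest shCtrl library, replicate 3 in that group. The means were 101 ± 7.88 and 136 ± 3.91 CPM (SD, n = 3), a rise of 34.6% (95% interval 25.0% to 45.0%, log2 fold change 0.43, SE 0.052, adjusted p = 8.99e-07).

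SKIL (ENSG00000136603, chr3:170357342-170396835, plus strand, 7 exons), the SKI-related co-repressor that is also a target gene of the pathway, had the largest change of the members. It measured 66.1, 65.0 and 72.6 CPM in shCtrl and 107, 94.7 and 93.7 CPM in shmiR155HG, again without overlap. The means were 67.9 ± 4.12 and 98.5 ± 7.46 CPM (SD, n = 3), a rise of 45.1% (95% interval 32.9% to 58.5%, log2 fold change 0.54, SE 0.062, adjusted p = 3.43e-07). TGFB1, SMAD7, SKI and SKIL were called higher in the main test and in every one of the 17 alternatives, the study's rule and each left-out library included.

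**Figure D2:**
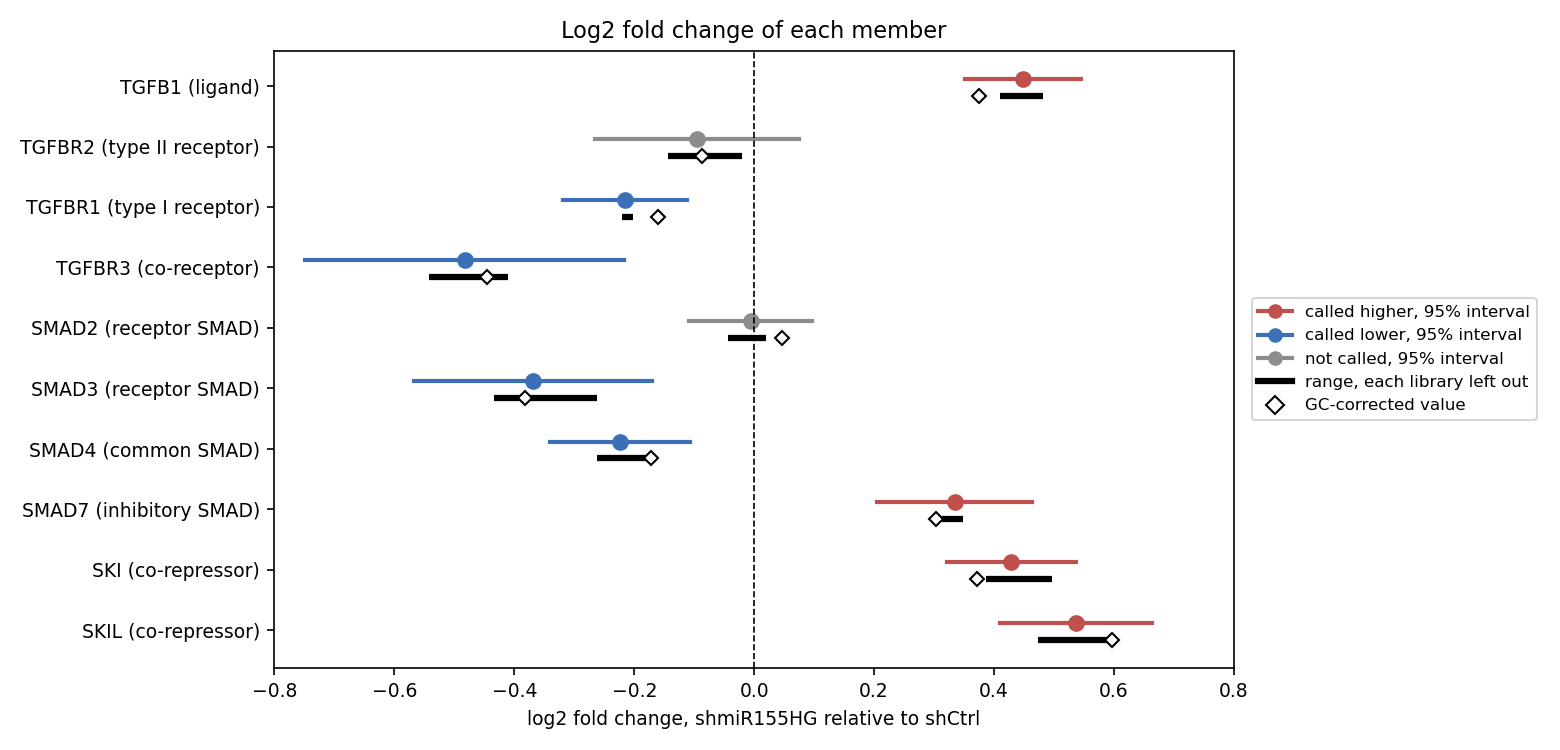
Log2 fold change of each member, shmiR155HG relative to shCtrl (horizontal axis), with points and coloured lines for the estimate and its 95% interval, black bars for the range when each of the 6 libraries was left out, and open diamonds for the value after GC correction. The intervals of TGFBR2 and SMAD2 cross 0, those of TGFB1, SMAD7, SKI and SKIL lie above it, and those of TGFBR1, TGFBR3, SMAD3 and SMAD4 lie below it.

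The rule of the study was edgeR's exact test, with a fold change above 1.2 and an unadjusted P below 0.01. As applied here, it called 8.29% of all genes tested and 6 of the 10 members. These were TGFB1, SMAD7, SKI and SKIL as higher and TGFBR3 and SMAD3 as lower. TGFBR1 and SMAD4 had unadjusted P values of 8.15e-05 and 0.000362 in this exact test and missed the fold alone. With 3 libraries against 3, an exact permutation test of a single gene cannot go below 0.1.

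The GC content of a transcript moved with the fold change over all genes. The median log2 fold change was -0.05 over the 20% of genes with the lowest GC content (at most 40.6%) and 0.07 over the 20% with the highest (at least 57.9%). Among the members that rose, TGFB1 (63.6% GC), SKI (61.4%) and SMAD7 (57.0%) were rich in GC, whereas SKIL (33.6%) had the lowest GC content of the 10. The members that fell had 38.8% (TGFBR1), 41.1% (SMAD4), 43.1% (TGFBR3) and 51.1% (SMAD3). After a correction for GC content in each library, the log2 fold change was 0.38 for TGFB1, 0.37 for SKI, 0.30 for SMAD7 and 0.60 for SKIL. It was -0.16 for TGFBR1 (adjusted p = 0.0269), -0.17 for SMAD4 (adjusted p = 0.0395), -0.45 for TGFBR3 (adjusted p = 0.0184) and -0.38 for SMAD3 (adjusted p = 0.00644), so that the same 8 members were called. Of 26 histone genes tested, 14 were called higher. Their median log2 fold change was 0.94, and whether their rise bears on the members' values was not tested.

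Within a library, the ratio of an inhibitor to a component of the signalling chain compares both genes without any scaling between libraries. A ratio gives only their relative change and does not show by itself that both moved. These ratios are of counts not divided by length, so they compare libraries and not genes, and since the single genes had been tested already they carry no test. SMAD7 per SMAD3 was 1.51, 1.32 and 1.67 in shCtrl and 2.33, 2.73 and 2.23 in shmiR155HG. SMAD7 per TGFBR1, its target at the receptor, was 0.470, 0.487 and 0.491 in shCtrl and 0.708, 0.709 and 0.702 in shmiR155HG. SKIL per SMAD4, which it binds, was 0.756, 0.735 and 0.813 in shCtrl and 1.51, 1.19 and 1.23 in shmiR155HG. For these 3 ratios the groups were apart by more than their spread. Each set a gene called higher over a gene called lower, both without overlap, so that separate groups were fixed in advance. By contrast, the ratio of the receptor subunits, TGFBR1 per TGFBR2, was 2.81, 2.87 and 2.53 in shCtrl and 2.31, 2.44 and 2.84 in shmiR155HG, with overlap. SKIL per SKI was 0.674, 0.686 and 0.661 in shCtrl and 0.801, 0.710 and 0.668 in shmiR155HG, also with overlap.

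Levels of different members were compared per kb of their canonical transcript, on which the order depends if a cell uses a shorter one. SMAD2 was left out of the order because its canonical transcript of 34626 nt holds a 3′UTR of 32870 nt. In shCtrl, TGFB1 was the most abundant at 41.1 ± 2.06 CPM per kb (SD, n = 3), followed by SKI at 16.6 ± 1.30 and TGFBR1 at 15.9 ± 0.0980, whose ranges overlapped. SMAD7 followed at 14.9 ± 0.405, then SMAD4 at 10.1 ± 0.107 and SKIL at 9.49 ± 0.576 CPM per kb, again with overlapping ranges. The lowest levels were those of TGFBR2 at 8.35 ± 0.568, SMAD3 at 5.20 ± 0.658 and TGFBR3 at 2.41 ± 0.221 CPM per kb. SKI was next after TGFB1 in both groups, at 22.3 ± 0.644 CPM per kb in shmiR155HG, whereas SMAD7 and SKIL moved up in the order. In shmiR155HG, SMAD7 at 18.8 ± 0.249 CPM per kb stood above TGFBR1 at 13.7 ± 0.205, and SKIL at 13.8 ± 1.04 stood above SMAD4 at 8.63 ± 0.509.

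**Figure D3:**
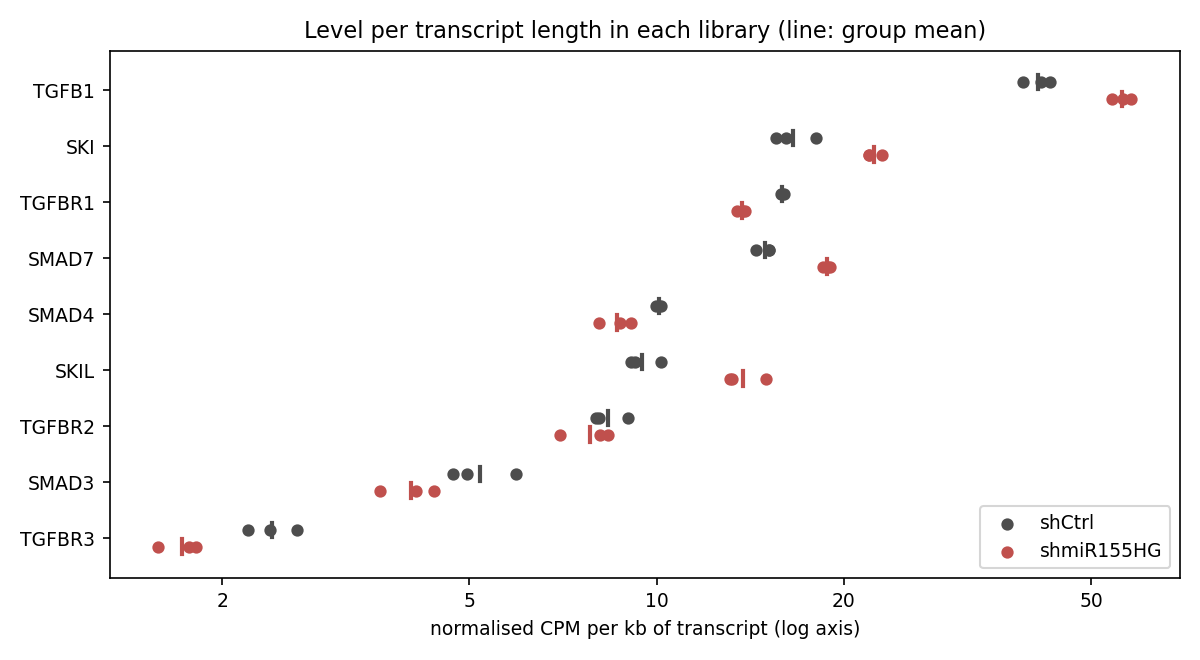
Normalised CPM per kb of canonical transcript (horizontal log axis) of 9 members, ordered by their shCtrl mean, with points for single libraries and short lines for group means. TGFB1 is at the top in both groups at 41.1 and 56.1 CPM per kb, and TGFBR3 is at the bottom at 2.41 and 1.72.

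MIR155HG is the host transcript of miR-155, a miRNA that pairs with sites in 3′UTRs through its seed (bases 2 to 8), and the mature miRNA was not measured in these poly(A) libraries. The mature sequence from RefSeq (GRCh38.p14, chr21:25573983-25574006, plus strand) is shown with the seed in capitals because the search below rests on it.
hsa-miR-155-5p: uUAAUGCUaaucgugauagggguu

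The match to the seed, AGCATTA, was searched on the transcript strand of the 3′UTR of each canonical transcript (GENCODE, hg38), and 4 of the 10 members (40%) held it, against 11.9% of the 10762 genes tested that have a 3′UTR. The members' 3′UTRs were longer, with a median of 3933 nt against 1276 nt over those genes. SMAD2 counts among the 4 through matches at 8694 and 17931 nt of its 3′UTR of 32870 nt. Whether these cells use so long a transcript was not tested. Each site is given from 5′ to 3′ on the transcript with the match in capitals, so that its surroundings can be compared. The sites were in TGFBR2 (chr3:30692045-30692074), SMAD2 (chr18:47833119-47833148 and chr18:47823882-47823911), SMAD3 (chr15:67194820-67194849) and SKI (chr1:2307659-2307688).
TGFBR2: gaagggacccatgacAGCATTAgcatttga
SMAD2 upstream: gtggacagttttcctAGCATTAaaagaaag
SMAD2 downstream: tcaaagtgctgggctAGCATTAttctgtta
SMAD3: cttgctaggggtgaaAGCATTAcagagaga
SKI: gcattggaacaaaagAGCATTAtttcaatt

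The upstream match of SMAD2, like none of the others in the members, is followed by the A that lengthens the pairing to an 8-base site. The members with a match did not share a direction: SKI rose (0.43), SMAD3 fell (-0.37), and TGFBR2 (-0.10) and SMAD2 (-0.01) were not called, all as log2 fold changes. Over all genes with a 3′UTR, the median log2 fold change was -0.02 with a match and -0.0020 without.

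Promoter sequences, from 250 bases before to 50 after the start, were found in RefSeq (GRCh38.p14) for 9 of the 10 members and not for SKI. For each member only the window at the start of the canonical transcript was searched. RefSeq lists 8 windows for TGFBR1, 5 for SMAD3, 3 for SMAD7 and 2 each for TGFBR2 and SMAD2, and their other windows were not searched. SMAD3 and SMAD4 bind the short box CAGAC, which was searched on both strands, together with the palindrome GTCTAGAC, which contains AGAC but not the whole box. The box occurred 2 times in SMAD7 and 1 time each in SKIL, TGFBR1 and SMAD3, and not in the windows of TGFB1, TGFBR2, TGFBR3, SMAD2 and SMAD4. It occurred in 45.3% of the 34796 promoters of the table. The palindrome was in none of the 9 windows searched, and in 0.193% of all promoters. The windows of SMAD7 (chr18:48950916-48951215, minus strand) and SKIL (chr3:170357465-170357764, plus strand) are shown because these are the called inhibitors known as target genes of the pathway, with the box in capitals as read on the strand of the gene (GTCTG is the box on the other strand).
SMAD7 promoter: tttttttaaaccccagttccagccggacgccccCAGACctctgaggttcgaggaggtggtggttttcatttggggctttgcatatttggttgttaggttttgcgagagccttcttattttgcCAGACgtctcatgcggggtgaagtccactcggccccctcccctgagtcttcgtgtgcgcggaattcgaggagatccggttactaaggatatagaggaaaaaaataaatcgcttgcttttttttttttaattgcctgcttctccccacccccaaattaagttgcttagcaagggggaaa
SKIL promoter: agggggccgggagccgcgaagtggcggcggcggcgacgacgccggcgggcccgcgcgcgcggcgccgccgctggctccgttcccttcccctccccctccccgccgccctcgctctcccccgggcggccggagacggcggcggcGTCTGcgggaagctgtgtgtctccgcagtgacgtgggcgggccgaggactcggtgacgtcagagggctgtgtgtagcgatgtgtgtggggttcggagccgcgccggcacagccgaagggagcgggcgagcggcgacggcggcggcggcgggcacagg

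The rest of the pathway was examined in 7 lists with 122 genes, of which 74 passed the filter. Of the tested genes, 14 were called higher, 2 lower and 58 were not called. The share called was 21.6%, beside 15.3% of all genes tested. The median log2 fold change was 0.043 against 0.00097 over all genes tested, and 24 of the 74 genes did not overlap between the groups, beside 30.8% of all genes tested. Without shCtrl replicate 1 or shmiR155HG replicate 1, 10 of these genes were called, 10 higher and 0 lower, with 4 and 3 lower at an unadjusted p under 0.05. By list, the share called was 16.7% for ligands and latency, 14.3% for receptors and co-receptors and 0% for SMADs and anchors. It was 18.8% for SMAD turnover, 42.9% for nuclear partners, 7.14% for the branch without SMADs and 33.3% for target genes. Over all genes tested, 7.26% were called higher and 8.02% lower.

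Among ligands and proteins of latency, 6 of 27 genes were tested, and GDF11, an activin-like ligand, was the 1 called gene, with 19.0 ± 2.44 CPM in shCtrl and 25.0 ± 0.839 CPM in shmiR155HG (SD, n = 3; log2 fold change 0.39, adjusted p = 0.00973). The call for GDF11 was lost without shCtrl replicate 1 (0.31, adjusted p = 0.0670) and without shmiR155HG replicate 1 (0.37, adjusted p = 0.0506). The other TGF-β ligands were nearly silent, with at most 24 counts for TGFB2 and 13 for TGFB3 in any library, so TGFB1 was the ligand of the 3 that these cells expressed above the filter. Of the 15 other receptors and co-receptors, 7 were tested, and ACVR1B, the activin type I receptor, which also phosphorylates SMAD2 and SMAD3, rose from 53.4 ± 5.30 to 70.7 ± 5.02 CPM (0.41, adjusted p = 0.000202). It was the only called gene of that list, while TGFBR1, its counterpart for TGF-β, fell. Of the 8 other SMADs and anchors, 5 were tested and none was called by edgeR, DESeq2 or limma-voom, with 1 gene at an unadjusted p under 0.05. STRAP, the most abundant of them and an adaptor that holds SMAD7 at the receptor, measured 108 ± 4.96 and 108 ± 4.65 CPM (adjusted p = 0.999).

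Of 16 tested genes that set SMAD turnover or dampen the receptor, 2 rose and 1 fell. LDLRAD4, a membrane protein that binds SMAD2 and SMAD3 and limits their activation, had the largest change of the 74 genes: it measured 35.0 ± 3.32 CPM in shCtrl and 74.6 ± 3.54 CPM in shmiR155HG (SD, n = 3), a 2.13-fold rise (log2 fold change 1.09, adjusted p = 9.24e-12). LDLRAD4 was called in all alternatives, with log2 fold changes of 1.03 to 1.17. PPP1R15A, a phosphatase subunit that SMAD7 brings to TGFBR1, rose from 16.8 ± 1.87 to 24.2 ± 1.59 CPM (0.53, adjusted p = 0.000921). UCHL5, a deubiquitinase of the receptor, fell from 190 ± 6.38 to 172 ± 3.40 CPM (-0.15, adjusted p = 0.0137). The call for UCHL5 was lost after the GC correction (-0.08, adjusted p = 0.153) and without shCtrl replicate 1 (-0.12, adjusted p = 0.0919), shmiR155HG replicate 1 (-0.13, adjusted p = 0.0769) or shmiR155HG replicate 2 (-0.15, adjusted p = 0.0530).

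Of 14 tested nuclear partners of the SMADs, 5 rose and 1 fell. The 5 became 2 without shCtrl replicate 1 or 2 or shmiR155HG replicate 2 or 3, 3 without shmiR155HG replicate 1, and 2 under the study's rule. TGIF1, a co-repressor like SKI and SKIL, rose from 7.73 ± 0.995 to 11.1 ± 1.29 CPM (0.52, adjusted p = 0.0214), a call lost without shCtrl replicate 1 (0.42, adjusted p = 0.113), shmiR155HG replicate 2 (0.55, adjusted p = 0.0523) or shmiR155HG replicate 3 (0.43, adjusted p = 0.128). CREBBP, an acetyltransferase and co-activator, rose from 155 ± 9.70 to 187 ± 7.94 CPM (0.27, adjusted p = 0.000101). NCOR1, a co-repressor that SKI recruits, rose from 133 ± 8.31 to 152 ± 8.27 CPM (0.19, adjusted p = 0.00741), a call lost without shCtrl replicate 2 (0.17, adjusted p = 0.0578) or shmiR155HG replicate 1 (0.16, adjusted p = 0.0759). Both co-activators and co-repressors were thus among the genes that rose. Among its other called genes, named here after their values were seen, EP300 was higher (0.15, adjusted p = 0.0262) and RBL1 was lower (-0.18, adjusted p = 0.0361). The call for EP300 held without shCtrl replicate 3 and was lost without any 1 of the other 5 libraries (0.12 to 0.16, adjusted p of 0.0609 to 0.123). That for RBL1 held without shCtrl replicate 2 and was lost without any 1 of the other 5 (-0.21 to -0.12, adjusted p of 0.0528 to 0.228), after the GC correction (-0.13, adjusted p = 0.152) and with limma-voom (adjusted p = 0.0504).

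In the branch that does not use SMADs, 14 of 14 genes were tested and MAP2K3, a p38 kinase kinase, was the 1 called gene, from 111 ± 7.14 to 132 ± 2.98 CPM (0.25, adjusted p = 0.000580). It was under the fold of the study's rule. The kinase gene ROCK1 was called as well after the GC correction (0.14, adjusted p = 0.0136) and without shCtrl replicate 3 (0.12, adjusted p = 0.0380). The 24 target genes of TGF-β are genes known to be induced or repressed through SMADs in various cell types. A rise or a fall in this list thus has no single meaning for the pathway. Of these genes, 12 were tested and 4 rose. None was called lower by edgeR, DESeq2 or limma-voom, with 1 gene lower at an unadjusted p under 0.05 in each. Without shCtrl replicate 3, 3 were called higher and 1 lower, which was ITGA1 (-0.15, adjusted p = 0.0469), and under the study's rule 2 were called higher. KLF10, an early TGF-β response gene, rose from 72.6 ± 2.10 to 88.6 ± 2.04 CPM (0.29, adjusted p = 0.000537). GADD45B rose from 76.2 ± 0.847 to 92.2 ± 2.42 CPM (0.27, adjusted p = 0.000637), and BHLHE40 from 662 ± 21.3 to 730.0 ± 23.5 CPM (0.14, adjusted p = 0.00377). ID2, named after its values were seen, was the other called gene (0.13, adjusted p = 0.0327). The call for ID2 was lost without shCtrl replicate 2 (0.12, adjusted p = 0.12) or 3 (0.11, adjusted p = 0.0907), without shmiR155HG replicate 1 (0.099, adjusted p = 0.184) or 3 (0.13, adjusted p = 0.0949), and with filterByExpr (adjusted p = 0.0532). ITGAE and ITGA1, which TGF-β is known to induce in tissue-resident NK cells, were not called with all 6 libraries, at 0.10 (adjusted p = 0.338) and -0.12 (adjusted p = 0.108). Many of these target genes also respond to cytokines and stress.

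**Figure D4:**
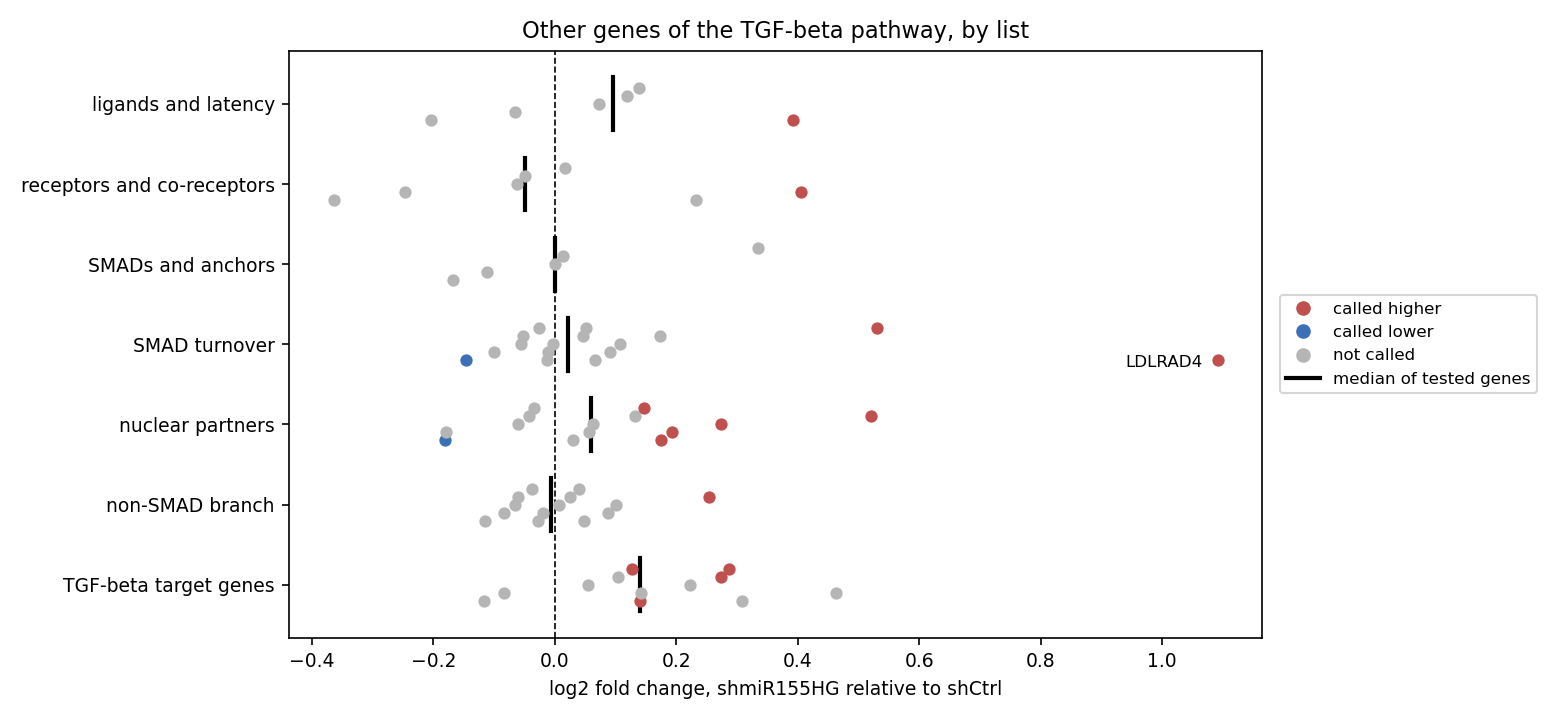
Log2 fold change of the 74 tested genes of the 7 other pathway lists (horizontal axis), one row of points per list, coloured by their call, with a black line at the list's median. Most points lie near 0 and are not called, 14 are called higher and 2 lower, and LDLRAD4 at 1.09 stands apart on the right.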

How the data were processed

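RNA of 6 NK92 libraries (3 shCtrl, 3 shmiR155HG) was analysed from 1 table of whole-number counts per gene, which the authors deposited without normalization. The authors captured poly(A) RNA with oligo(dT), aligned read pairs of 150 bases to hg38 with HISAT2, and counted reference transcripts with StringTie and prepDE.py3. The annotation release, the strandedness and the read length used to derive counts are not given in the sources used here, so a count may stand for less than 1 read, and counts were halved as an alternative. For shmiR155HG replicates 2 and 3 the treatment label spells the target with another number, and the sample titles were followed.

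The study's filter was used (over 1 CPM in 2 or more libraries), with TMM scaling. Groups were compared over all 12263 genes with the quasi-likelihood test of edgeR 4.0.16 (robust fit, Benjamini-Hochberg adjustment, threshold 0.05) in R 4.3.3. SD values are of normalised CPM, SE values are of log2 fold changes, and intervals are 95%. DESeq2 1.42.0, limma-voom (limma 3.58.1) and edgeR's exact test under the study's thresholds were alternatives, as were scaling, filters, a GC correction (a loess curve per library with span 0.3) and each library left out. Positions, transcripts and GC content came from GENCODE 44 (GC known for 99.6% of genes tested), and miRNA and promoter sequences from RefSeq (GRCh38.p14).

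The named genes were the 10 members, MIR155HG and up to 3 genes per other pathway list with the largest absolute log2 fold change among those called, or the most abundant gene where none was called. The members and lists were chosen with earlier results of these data known. Differences between replicates exceeded sampling noise (mean chi-square per gene of 7.35 to 10.9 for a pair, where sampling alone gives about 1), and the common biological coefficient of variation was 8.71%.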

Additional observations from a re-analysis of the deposited data

How the results depend on the processing

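TGFB1, TGFBR1, SMAD7, SKI and SKIL kept their direction and their call in the 16 alternatives with an adjusted p, TGFBR3 and SMAD3 in 14 and SMAD4 in 15, each losing it only when 1 library was left out. Leaving out 1 library gave 2 to 4 members lower. It gave 580 to 891 genes called higher over all genes, the lowest without shmiR155HG replicate 2. For the other pathway genes it gave 10 to 16 calls, of which 0 to 2 were lower, with 3 to 5 lower at an unadjusted p under 0.05 in edgeR. Under the study's rule, 1017 genes were called (551 higher, 466 lower), with 2 members lower, and 8 of the other pathway genes, 8 higher and 0 lower (5 lower at an unadjusted P under 0.05 in the exact test). Limma-voom left 1 other pathway gene lower, UCHL5 (adjusted p = 0.021). The GC correction also gave 1 lower, but this was neither UCHL5 (adjusted p = 0.153) nor RBL1 (adjusted p = 0.152), the genes called lower in the main test. With the replicate block, 8 members and 1738 genes were called. Same-numbered libraries did not deviate together (correlations of -0.0179, 0.000983 and 0.00348, and 1 of 3 numbers matched best with itself). The counts thus showed no pairing by number, but they cannot tell whether same-numbered libraries were handled together. The GC correction with the block was not run. SMAD2, near 0, changed sign after the GC correction (log2 fold change 0.047) and without shCtrl replicate 1 (0.0055), shmiR155HG replicate 1 (0.0081) or shmiR155HG replicate 3 (0.020), and over all left-out libraries it lay between -0.044 and 0.020. STRAP, also near 0, changed sign with DESeq2's size factors (0.0015), total counts (0.0022), a mean of at least 5 CPM (0.0039), the replicate block (9.6e-05), DESeq2 (0.0014), the GC correction (0.029), and without shCtrl replicate 1 (0.037), shmiR155HG replicate 1 (0.0066) or shmiR155HG replicate 2 (0.027), with -0.032 to 0.037 over all left-out libraries. MIR155HG was called in every alternative that tested it, with log2 fold changes of -2.13 to -1.52. The causes of these shifts were not tested. With 3 libraries a group, differences of a few percent, as for SMAD2, could not be told from 0, and depth limits the precision of MIR155HG, at 10 to 73 counts.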
